A study of Mus musculus with 2 samples.

Results

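The microglia of library 1 are the barcodes of 1 droplet single-cell RNA library of adult mouse hippocampus that were chosen by their content of 6 microglial transcripts. A barcode was taken if it held at least 1000 unique molecular identifiers (UMIs, each tagging 1 captured RNA molecule), 500 genes or more, and no more than 10% of UMIs from the mitochondrial genome. P2ry12, Cx3cr1, Tmem119, Csf1r, Selplg and Gpr34 together had to make up at least 0.5% of its UMIs, and the neuronal RNAs Meg3 and Snhg11 less than 1.5%. This gave 790 cells, 6.42% of the 12306 barcodes of library 1 and 790 of the 18754 in the series. Of the 7209 barcodes of library 1 that passed the depth and mitochondrial limits, the members were 11.0% (exact binomial 95% interval 10.2 to 11.7%).

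The series holds 2 libraries of wild-type hippocampal cells from male C57BL/6 mice of 10 weeks, made with the 10x Genomics 3' kit, version 3, after percoll-gradient removal of debris and myelin. Each library is a pool of 3 animals, so animals cannot be told apart within it. The study compared dissociation by enzymes (37 °C, 30 min) with a mechanical way at 4 °C, but no label ties library 1 or library 2 to either way of dissociation. Both are therefore left without a group, their values are given side by side with no method attached, and no p-value was computed, since there is 1 library on each side. A level is the sum of a gene's or group's UMIs over the cells, given per 1000000 UMIs of those cells (CPM). The kit tags 1 end of each RNA, so a longer gene does not collect more UMIs for its length. All intervals are exact 95% intervals for counting error alone and say nothing of differences between animals or preparations.

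Microglia are the resident macrophages of the brain. They enter the brain in the embryo, renew themselves there and depend on the receptor encoded by Csf1r, whose ligands keep them alive, and on TGF-beta signalling, which maintains their typical gene programme. In the resting adult brain their processes move constantly, sense nucleotides through P2ry12 and neuronal fractalkine through Cx3cr1, and clear debris through complement, Fc and TREM2 receptors that feed a large lysosomal system. Handling and warming of living tissue can induce immediate early and inflammatory genes in these cells, which is the question the series addresses.

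Most members lay well above the marker threshold, as the plot of both selection measures shows. Their marker share had a median of 1.69% and ran from 0.513 to 3.30% of UMIs. Among barcodes with Meg3 and Snhg11 under the limit, 28 had a marker share between 0.25 and 0.5%, 75 between 0.5 and 1%, 521 between 1 and 2%, and 194 above that. The 3 members closest to the threshold had 0.513, 0.527 and 0.556%, and the 3 barcodes closest below it 0.492, 0.484 and 0.454%. A further 51 barcodes met the marker share but were left out for Meg3 and Snhg11. The closest of them held 1.58 and 1.84% of these neuronal RNAs, and the closest members 1.39 and 1.37%. Both thresholds thus fall in sparsely filled ranges with no gap.

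**Figure D1:**
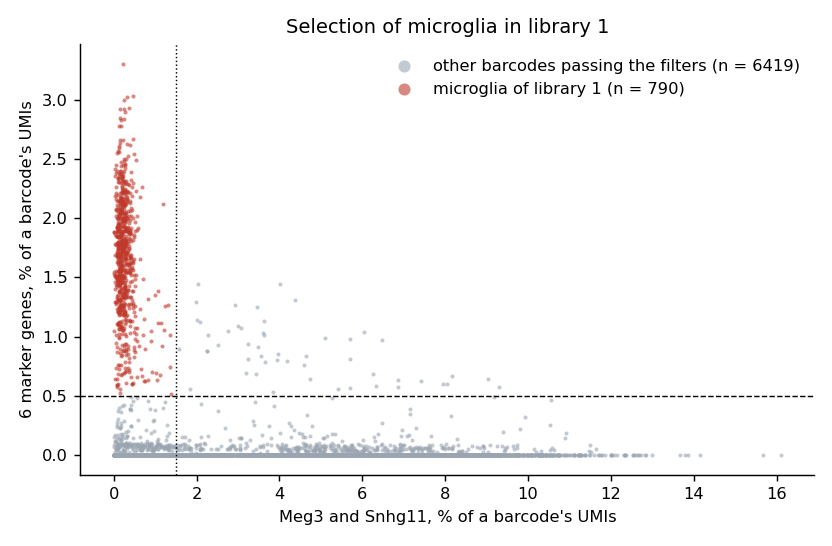
Each point is 1 of the 7209 barcodes of library 1 that passed the depth and mitochondrial limits, with the share of its UMIs from Meg3 and Snhg11 on the x axis and from the 6 marker genes on the y axis, both in percent. Red points are the 790 members, the dashed line marks the 0.5% marker threshold and the dotted line the 1.5% limit on neuronal RNA. The members form a column at low neuronal RNA, and 51 barcodes above the dashed line lie to the right of the dotted line.

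The members held 1891071 UMIs, 10.1% of library 1, with a median of 2280 UMIs and 1324 genes per cell and a median mitochondrial share of 2.44%. The same rule applied to library 2 chose 1564 of its 2164 passing barcodes (72.3%, 70.3 to 74.2%), with a median of 6505 UMIs and a mitochondrial share of 4.71%. The 2 libraries thus differ in depth by a wide margin, and percentages of cells with a UMI of a gene are given after each cell was thinned to 1000 UMIs. Counts of members with or without a UMI are from unthinned cells. The libraries had 19 barcode sequences in common, 3 of them members, and 0 were chosen in both. Library 2 carries another sample number in its files than in its title, and no source used here gives the reason. For comparison within library 1, classes were set apart by marker share: 4491 neuron-like barcodes (median 1842 UMIs), 292 astrocyte-like (1144) and 150 oligodendrocyte-like (1266.5). All 6419 passing barcodes outside the rule, these classes included, are called the rest.

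The label was checked on genes that the rule did not use, as a description without a test, because the members were chosen on RNA of these same cells. Of 5645 genes measured, 941 (16.7%) were at least 4 times higher in the members than in the rest and 1228 (21.8%) at least 4 times lower. Of the 30 other genes of resting microglia, 28 were in the first set, and the remaining pair, Bin1 and Gas6, stood at 888 and 132 CPM against 256 and 70.7 CPM in the rest. These 30 genes summed to 95009 CPM (94569.8 to 95449), against 3492 CPM in the rest. Cst3, the cystatin C gene (ENSMUSG00000027447, chromosome 2, 148871722 to 148875692), was the most abundant transcript of all with 56715 CPM (56376 to 57055).

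Ranked by the lower bound of the ratio to the rest, 13 of the 20 leading genes belonged to the marker and resting-microglia lists and 7 did not. Mlph, which encodes the motor adaptor melanophilin (ENSMUSG00000026303, chromosome 1, 90915085 to 90951142), led with 198 CPM (178 to 219) against 1.44 CPM in the rest. Cysltr1, a receptor for cysteinyl leukotrienes, stood at 149 CPM (132 to 167) against 1.52 CPM. Abi3, an actin regulator of the WAVE complex, stood at 442 CPM (413 to 473), Susd3 at 353 CPM (327 to 381) and Gna15, a G protein subunit, at 216 CPM (195 to 238). The unnamed transcripts A630001G21Rik and Gm37474 had 51.3 and 112 CPM. All 7 were also present in the library 2 cells, from 57.9 CPM of A630001G21Rik to 381 CPM of Abi3. Mlph was 1.72 times (1.52 to 1.93) as high in library 1.

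**Figure D2:**
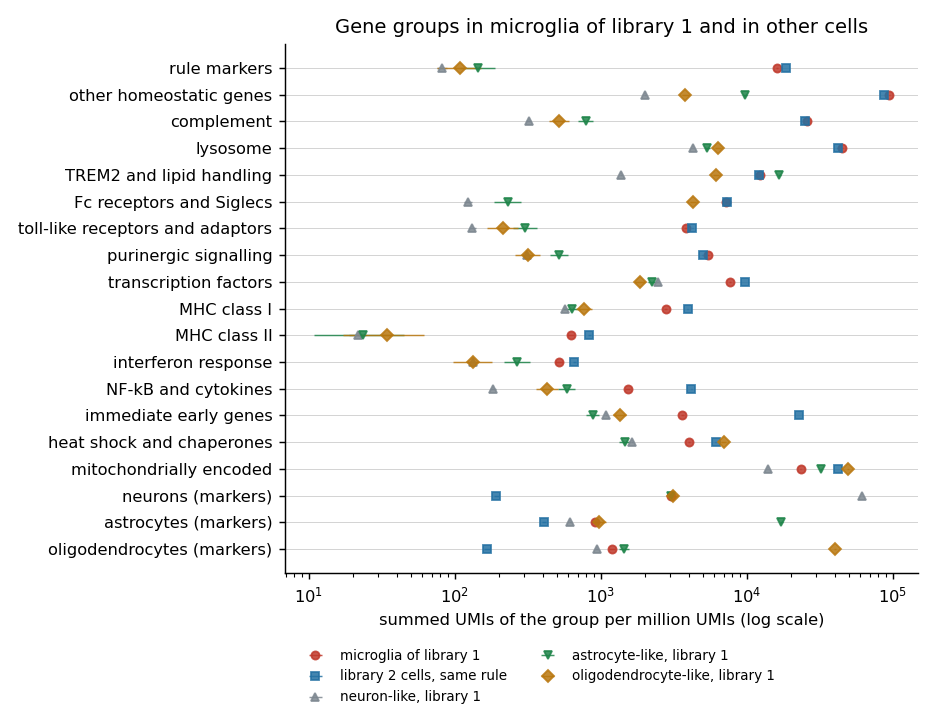
Summed level of gene groups, in UMIs per 1000000 UMIs on a log axis, in the 790 microglia of library 1 (red circles), the 1564 library 2 cells chosen by the same rule (blue squares) and 3 other classes of library 1. Bars are exact 95% Poisson intervals and are often smaller than the symbols. The red and blue symbols lie close together for microglial groups such as complement and lysosome, and apart for immediate early genes and for neuron, astrocyte and oligodendrocyte markers.

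All 26 genes of the transcription factor list, which holds factors of myeloid cells and microglia beside more widely expressed ones, were detected. Among them, Mef2c stood at 978 CPM (934 to 1023) and Maf at 802 CPM (762 to 844). Irf8 stood at 747 CPM (709 to 787), Spi1, which encodes PU.1, at 384 CPM (357 to 413), and Sall1, which in the brain is typical of microglia, at 279 CPM (255 to 304). Of 21 factors measured against the rest, 16 were at least 4 times higher, where 16.7% of all genes were. The 5 that were not are Mef2c (295 CPM in the rest), Tcf4 (503 against 1506 CPM), Bhlhe41, Etv1 and Hif1a. Mef2c and Tcf4 are also genes of neurons. Against library 2, 0 of 24 were at least 2 times higher, where 5.66% of all tested genes were, and 6 were at least 2 times lower, where 3.72% were. Of these, Atf3, Klf2, Klf4 and Klf6 are also on the immediate early list. The 6 include Atf3 (34.9 against 597 CPM), Klf6 (143 against 375 CPM), Cebpb (167 against 502 CPM) and Bhlhe41 (149 against 314 CPM). Atf3, Klf2 (43.9 CPM) and Klf4 (9.52 CPM) were under 50 CPM in the members. They were measured through library 2 and could only come out lower.

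Receptors for extracellular nucleotides and the enzymes that remove these were led by P2ry12 with 3509 CPM (3425 to 3594), a gene of the rule. P2ry13 had 593 CPM (559 to 629) and P2ry6, the receptor for UDP that triggers phagocytosis (ENSMUSG00000048779, chromosome 7, 100937630 to 100974649), 500.2 CPM (469 to 533). Entpd1, the ectoenzyme CD39 that breaks down ATP and ADP, stood at 298 CPM (274 to 324), and the adenosine receptor Adora3 at 146 CPM (129.7 to 165). P2ry6 was 1.64 times (1.52 to 1.76) as high as in library 2 and Entpd1 0.650 times (0.594 to 0.709), both short of the 2 times set as the threshold. At 1000 UMIs a cell, P2ry6 was found in 35.8% of members, 23.8% of library 2 cells and 0.379% of neuron-like barcodes. Ada, which deaminates adenosine, had 0 UMIs in the members, and Nt5e, the next enzyme after CD39, had 3.

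Among survival and maintenance signals, Csf1r of the rule stood at 3069.7 CPM (2991 to 3149.7), the TGF-beta receptor gene Tgfbr1 at 955 CPM (911 to 1000.1) and its partner Tgfbr2 at 201 CPM (182 to 223). The ligand gene Tgfb1 (ENSMUSG00000002603, chromosome 7, 25687002 to 25705077) was at 566 CPM (533 to 601) against 404 CPM in library 2. Nrros, which anchors latent TGF-beta on the surface of microglia, had 112 CPM (97.0 to 128). Smad7, the feedback inhibitor of this pathway, was at 226 CPM and 360.4 CPM in the 2 libraries. The growth factor gene Igf1 had 0 UMIs.

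Complement genes summed to 25949 CPM (25719.7 to 26179), against 25213 CPM (25118 to 25309) in library 2 and 656 CPM in the rest. Almost all of this came from the 3 chains of C1q, the molecule that starts the classical pathway. C1qa (ENSMUSG00000036887, chromosome 4, 136895917 to 136898803) had 10195 CPM (10051 to 10339.7), C1qb 8869 CPM (8735 to 9004) and C1qc 5644 CPM (5538 to 5753), and every member held UMIs of each. Library 2 had 8808, 8254 and 6487 CPM. The 3 chains thus kept the same order in both libraries, with C1qa and C1qb higher and C1qc lower in library 1 (ratios 1.16, 1.07 and 0.870). Itgam, the alpha chain of complement receptor 3, had 315 CPM (290.4 to 342) against 509 CPM in library 2. The anaphylatoxin receptor genes C3ar1, C5ar1 and C5ar2 followed with 137, 77.2 and 62.4 CPM. C1s1, C4a, Cfb and Vsig4 had 0 UMIs.

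Lysosomal genes made up 45158 CPM (44856 to 45462), and all 36 were detected. The proteases Ctsd (ENSMUSG00000007891, chromosome 7, 142375911 to 142388038), Ctss and Lgmn stood at 6971, 4501 and 3194 CPM, and Laptm5, a membrane protein of lymphoid and myeloid lysosomes, at 2104 CPM (2039 to 2171). Of 34 genes measured against the rest, 23 were at least 4 times higher, where 16.7% of all genes were. The proton pump was shared with other cells: Atp6v0b stood at 1161 CPM in the members and 1214 CPM in the rest. Of the lipid-handling list, Trem2 had 2611 CPM (2538 to 2685), Tyrobp, its signalling adaptor, 2494 CPM (2424 to 2567), Cd9 1046 CPM (1000.4 to 1093) and Npc2, which moves cholesterol out of lysosomes, 652 CPM (616 to 689). Apoe, a carrier of lipids that astrocytes make in quantity, was at 1419 CPM (1366 to 1474) in the members, 1458 CPM in the rest and 14603 CPM in astrocyte-like barcodes. With the 3 small sub-clusters described further on left out, Apoe stood at 1138 CPM. The macrophage gene Lyz2 was the 1 gene of 16 of this list past 2 times against library 2, with 164 and 333 CPM.

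Sensors of microbial and damage signals were present at moderate levels, with 3815 CPM (3727 to 3904) over 26 genes. Ly86, a partner of the receptor-like CD180, had 1497 CPM (1442 to 1553), Unc93b1, which delivers nucleic-acid-sensing toll-like receptors to endosomes, 1053 CPM (1008 to 1101) and Cd14, the co-receptor for lipopolysaccharide, 306 CPM (281 to 332). Of the receptors, Tlr7 led with 117 CPM (102 to 134), then Tlr2 with 74.6, Tlr3 with 68.7, Tlr13 with 66.6 and Tlr4 with 48.6 CPM. From Tlr2 on, the counting intervals of neighbours in this order overlap. Tlr8 and Tlr11 had 0 UMIs. Among Fc receptors and Siglecs, Fcer1g, the common signalling chain, had 2044 CPM (1980.4 to 2109.8), Fcrls 1765 CPM (1705 to 1826), Siglech 1188 CPM (1139.6 to 1238), Fcgr3 1052 CPM (1007 to 1099.6) and the sialic acid receptor Cd33 321 CPM (296 to 348). The inhibitory Fcgr2b was at 122 CPM against 212 CPM in library 2. Mag, a Siglec of myelin and not of microglia, stood at 106 CPM against 28.8 CPM.

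MHC class I genes summed to 2785 CPM (2709.96 to 2861) against 3957 CPM (3919 to 3995) in library 2 and 645 CPM in the rest. Of 8 measured, 7 were at least 4 times over the rest, where 16.7% of all genes were. Of the class II list, 4 of 5 were, namely Cd86, H2-DMa, H2-DMb1 and H2-Oa, none of them a chain of the class II molecule itself. A pair of class I genes passed 2 times against library 2, both lower in library 1. B2m, the light chain of every class I molecule (ENSMUSG00000060802, chromosome 2, 122147686 to 122153083), stood at 567 CPM (533 to 602) against 1294 CPM (1272 to 1315), and the nonclassical H2-T23 at 64.5 CPM (53.6 to 77.0) against 194 CPM (186 to 202). The heavy chain genes H2-K1 and H2-D1 had 270.2 and 221 CPM against 315 and 369 CPM. Of MHC class II, the costimulator Cd86 had 186 CPM (167 to 207) and the peptide-loading genes H2-DMa and H2-DMb1 176 and 137 CPM, close to library 2 (203, 176 and 115 CPM). The class II chains themselves were nearly absent: Cd74, the invariant chain, had 19.0 CPM (13.3 to 26.4), H2-Ab1 9.52 CPM, and H2-Aa and H2-Eb1 a single UMI each. Library 2 cells held 143 CPM of Cd74 and 42.4 CPM of H2-Eb1. The rest of library 1 was also above the members, with 62.3 CPM of Cd74, 17.5 of H2-Ab1, 23.4 of H2-Aa and 18.3 of H2-Eb1. Border-associated macrophages, which carry class II chains, were also rarer by their markers in the members, with Mrc1 at 3.70 against 17.7 CPM and the 8 marker genes together at 5.82 against 44.8 CPM. Their part in the class II difference was not tested.

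Genes of movement and adhesion summed to 29662 CPM (29417 to 29908). The actin-binding peptide gene Tmsb4x had 10829 CPM (10682 to 10979) and Actb 6781 CPM (6664 to 6899), whereas Aif1, the gene of the microglial stain IBA1, had 748 CPM (709.8 to 788) and Inpp5d, a lipid phosphatase that dampens receptor signalling, 481 CPM (449.9 to 513). Of 25 genes, 23 were at least 4 times over the rest, where 16.7% of all genes were. Both the sum and the 23 include Cx3cr1 (2970 CPM), a gene of the rule, whose excess over the rest follows from the choice of members. Among channels and transporters, Clic1 had 605 CPM (571 to 642), the fructose carrier Slc2a5 418 CPM (389.6 to 448), and the potassium channels Kcnk6 and Kcnk13 109 and 80.9 CPM. Slc15a3, a lysosomal carrier of peptides and histidine, was the member of this list lower than in library 2 by the threshold, with 79.3 CPM (67.1 to 93.1) against 252 CPM (243 to 262). The ferritin genes Fth1 and Ftl1 stood at 2456 and 1798 CPM against 2281 and 1723 CPM. Proliferation genes summed to 529 CPM (497 to 563) against 503 CPM in library 2 and 262 CPM in the rest, with 24 of 25 detected. Mki67 stood at 7.93 CPM (15 UMIs), and 21 of the 25 Top2a UMIs lay in a single cell.

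Promoters of genes that the members share were searched for short motifs in the 250 bases before the start site, using RefSeq promoter entries on GRCm38.p6. Entries were found for 24 of the 30 resting-microglia genes and for P2ry12 and Cx3cr1 of the 6 rule genes. The 5 motifs searched on both strands were GAGGAAGT, GAGGAAG and GGAAGT, nested forms of the site bound by PU.1 and other ETS factors, TGACTCA, bound by AP-1, and CTATTTTT, bound by MEF2 factors. GGAAGT was present for 10 of 24 resting-microglia genes, 6 of 15 complement genes and 7 of 31 immediate early genes, against 22.2% of all 27025 genes. GAGGAAG was present for 6 of 24 (all genes 3244 of 27025) and GAGGAAGT for 1, Hpgds (all genes 2.79%). TGACTCA and CTATTTTT were found in 0 of 24 (all genes 5.16% and 1.61%). Stretches of 120 bases are shown for a gene of the rule, a resting-microglia gene and a C1q chain, because each holds a match and is high in the members. Siglech stood at 1188 against 17.6 CPM in the rest and C1qb at 8869 against 191 CPM. Capitals mark GGAAGT or its reverse complement ACTTCC, and a match is a description of letters, not of binding.
P2ry12, chr3:59262986-59263105, minus strand: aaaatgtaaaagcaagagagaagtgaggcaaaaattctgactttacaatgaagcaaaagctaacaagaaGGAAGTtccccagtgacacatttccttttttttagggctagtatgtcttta
Siglech, chr7:55767968-55768087, plus strand: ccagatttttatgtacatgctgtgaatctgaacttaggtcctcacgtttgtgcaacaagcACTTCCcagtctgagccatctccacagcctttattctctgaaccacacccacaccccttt
C1qb, chr4:136886201-136886320, minus strand: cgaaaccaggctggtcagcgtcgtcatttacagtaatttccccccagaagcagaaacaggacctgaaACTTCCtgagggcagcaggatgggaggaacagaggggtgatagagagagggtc

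The members were not uniform. Clustering them on their own gave a main sub-cluster 0 of 676 cells (85.6%) and 3 small ones of 41, 38 and 35 cells, each led by RNA of another brain cell type. The clustering resolution was chosen after several had been seen. Sub-cluster 1 was led by neuronal genes. The glutamate receptor subunit Grin2a stood there at 1791 CPM against 50.9 CPM in the other members, and neuron markers at 9413 CPM against 2487 CPM in sub-cluster 0. Sub-cluster 2 was led by astrocyte genes, with the glutamate carrier Slc1a2 at 2304 CPM against 118 CPM in the other members. Sub-cluster 3 held myelin RNA, with oligodendrocyte markers at 8084 CPM against 818 CPM in sub-cluster 0.

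Microglial RNA was lower in all 3 small sub-clusters. The 6 rule markers, which every member had to hold, stood at 17212 CPM in sub-cluster 0 and at 9708, 12825 and 13809 CPM in sub-clusters 1 to 3, and the other resting genes at 101024, 59123, 78657 and 78706 CPM. The small sub-clusters were also deeper, with medians of 3851, 2883.5 and 2744 UMIs against 2199.5. Of 38 members with 4000 UMIs or more, 27 lay in them. Scrublet, which scores barcodes for likeness to simulated pairs of cells, marked 15 of the 41 cells of sub-cluster 1, 1 of 38 in sub-cluster 2, 0 of 35 in sub-cluster 3 and 0 of 676 in sub-cluster 0. It marked 1.79% of all passing barcodes of library 1. The expected share of 9.84% was set from all 12306 barcodes of library 1, not from the 7209 that passed. Whether the cells of the small sub-clusters are pairs was not tested further. Without the 114 cells, astrocyte markers of the members stood at 520.3 CPM in place of 919 CPM, and neuron markers at 2487 in place of 3033 CPM.

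**Figure D3:**
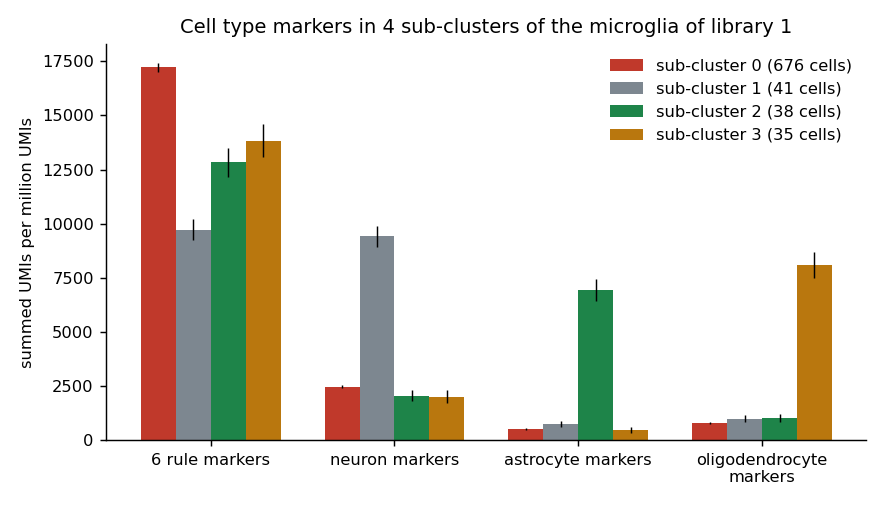
Summed level of 4 marker lists, in UMIs per 1000000 UMIs, in the 4 sub-clusters of the microglia of library 1. Bars start at 0 and error bars are exact 95% Poisson intervals. Rule markers are highest in sub-cluster 0, and sub-clusters 1, 2 and 3 each stand out in 1 of the other lists.

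Low levels of neuronal RNA were found in nearly every member. At least 1 UMI of the 8 neuron markers was found in 788 of 790 cells, and together they stood at 3033 CPM (2955 to 3112). Astrocyte-like and oligodendrocyte-like barcodes of the same library had 3040.4 and 3148 CPM, neuron-like barcodes 61572 CPM and library 2 cells 193 CPM. The 3 non-neuronal classes of library 1 were limited to under 1.5% of Meg3 and Snhg11, which make up most of this list. Of genes outside that limit, Snap25, a synaptic fusion protein, stood at 50.2, 50.1 and 40.6 CPM in members, astrocyte-like and oligodendrocyte-like barcodes, and Syt1, a calcium sensor of synaptic vesicles, at 137, 182 and 166 CPM. Their neuron-like levels were 555 and 1138 CPM. With no limit on Meg3 and Snhg11, the neuron marker sum of the members was 7308 CPM.

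Other immune cells left almost no trace. Of 8 T and NK cell markers, 7 had 0 UMIs and Skap1 had 1. Of 8 neutrophil markers, 7 had 0 UMIs, and the remaining one, the receptor gene Csf3r, was at 164 CPM (147 to 184), with at most 3 UMIs in 1 cell. Of B cell genes, Cd79a and Igkc had 0 UMIs. Ighm, the immunoglobulin mu heavy chain gene (ENSMUSG00000076617, chromosome 12, 113418558 to 113422730), nevertheless stood at 253 CPM (231 to 276) against 6.78 CPM in the rest and 223 CPM (214 to 232) in library 2. At 1000 UMIs a cell it was found in 21.5% of members (18.7 to 24.6%), 20.1% of library 2 cells and 0.178% of neuron-like barcodes, with at most 7 UMIs in 1 member. Cd79b, a signalling chain of the B cell receptor, stood at 47.1 CPM (37.8 to 57.9) against 0.478 CPM in the rest and 37.8 CPM (34.2 to 41.7) in library 2. Xist had 1 UMI and the Y-linked Ddx3y 177 UMIs, set beside the male label.

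A few members held most UMIs of certain response genes, while the immediate early and NF-kB groups as a whole were found in most members. The 37 immediate early genes, which cells transcribe within minutes of a stimulus, summed to 3621 CPM (3535 to 3708), and 6 cells held 12.1% of their UMIs (829 of 6847). These cells had 65 to 257 such UMIs, the next cell 33 and the median cell 7, and 9 of 790 members held 0. They held 55 of 69 Egr1 UMIs, 21 of 24 Fos UMIs, 161 of 407 Jun UMIs and 12 of 12 Il1b UMIs. Without them, Egr1 stood at 7.47 CPM in place of 36.5, Fos at 1.60 in place of 12.7, Jun at 131 in place of 215, and the whole group at 3209 CPM. Other genes of the group were spread over many cells, such as Rhob, a small GTPase gene at 964 CPM. At 1000 UMIs a cell, Rhob was found in 60.9% of members, 73.0% of library 2 cells and 3.07% of neuron-like barcodes. The 6 cells had 1944 to 3333 UMIs, within the range of the other members, and 0 were marked as doublets.

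The NF-kB and cytokine genes were also spread over most members (53 held 0), with 7 cells holding 13.8% of 2904 UMIs. Of these 7 cells, 4 were among those 6. They held 132 of 141 UMIs of the chemokine gene Ccl4 and 75 of 105 of Ccl3. Other members of the list were spread more evenly, such as Ccl9 (209 CPM, at most 6 UMIs in 1 cell), Bcl2a1b (143 CPM) and the adhesion gene Icam1 (121 CPM). In library 2 cells these 3 stood at 167, 157 and 234 CPM. The whole list summed to 1536 CPM in the members and 4185 CPM in library 2 cells. Of the interferon-induced genes, 293 of 976 UMIs (30.0%) lay in 5 cells, with 30 of 40 Ifit3 UMIs, 20 of 25 Rsad2 UMIs and 28 of 40 Ifitm3 UMIs. A single cell held 45 of 52 Ccl5 UMIs and 1 cell held 8 of 8 UMIs of Cxcl9. Without the 5 cells the interferon group stood at 364 CPM in place of 516 CPM. Of these 5, 0 were among the 6 cells rich in immediate early genes and 1 among the 7 rich in NF-kB genes. The cells were picked for these values, which are a description of where the UMIs lie.

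Haemoglobin RNA was the most unevenly spread, with 7452 of 7501 UMIs in 2 cells. In both cells haemoglobin exceeded all else (581143 CPM of their RNA), and their marker shares, 0.601 and 0.639%, lay just above the threshold. The 4 haemoglobin genes stood at 3967 CPM over all members and 26.1 CPM without the pair, and Hbb-bs at 2462 and 16.5 CPM. Ttr, the transthyretin gene of choroid plexus, had 530 UMIs in the members, of which 185 lay in 1 cell, and stood at 280.3 CPM against 5056 CPM in the rest. Within sub-cluster 0, thinned to 1000 UMIs, variance over mean had a median of 1.02 over 2450 genes. The highest values after haemoglobin were those of Ttr (18.9), Ccl4 (12.7), Cst3 (9.03), Apoe (5.86) and Jun (5.19), while C1qa (1.63) and Ctss (1.62) lay closer to the median.

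The library 2 cells chosen by the same rule are the closest population in the series, and the members' levels were set beside theirs gene by gene. Of 3902 genes with at least 50 CPM in either and 20 UMIs in all, 221 (5.66%) were at least 2 times higher in the members and 145 (3.72%) at least 2 times lower, with the interval of the ratio on the same side of 1. The median log2 ratio over all tested genes was 0.14 toward library 1, and dividing by it gave 183 higher and 172 lower. The libraries differ in depth, mitochondrial share, cell makeup and possibly dissociation, and these cannot be told apart.

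The count past 2 times was 0 of 30 resting genes, 0 of 33 lysosomal genes and 0 of 25 movement genes. The 6 rule markers chose both sets of cells, so their levels are a description only. Cx3cr1 was lower in the members at 2970.3 against 4696 CPM, a ratio of 0.633 (0.615 to 0.650), and Siglech at 1188 against 1609 CPM, a ratio of 0.739 (0.707 to 0.772), whereas P2ry12 at 3509 against 3117 CPM was slightly higher. Tmem119 and Sparc had ratios whose intervals include 1. The resting genes had a median log2 ratio of -0.01 and the lysosomal genes of 0.12, against the 0.14 of all genes. Complement genes had -0.33, transcription factors -0.23 and toll-like receptors and adaptors -0.22. The Fc receptor and lipid-handling lists had 0.06 and 0.04.

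Genes higher in the members were for the most part those of other cells of library 1. Of the 221, 198 were higher in neuron-like barcodes and 205 (92.8%) in the rest of library 1 than in the members, against 29.5% of all genes tested. The highest by the bound of the ratio were the transcripts Gm43670, Ly6h, Grin2a, Icam5, Nell2, Lrp1b and Lrfn5. Grin2a stood at 200.4 CPM (181 to 222) in the members, 2.54 CPM in library 2 and 1631 CPM in neuron-like barcodes, and Ly6h at 169.7, 1.97 and 1585 CPM. The synaptic peptide gene Cck had 149.7 against 3.66 CPM, the adhesion gene Nrcam 90.4 against 2.16 CPM and the metabotropic receptor gene Grm5 84.1 against 2.35 CPM. Leaving out the small sub-clusters of library 1 brought the number of higher genes from 221 to 97, of which 91 were among the 221. Neuron markers still stood at 2487 CPM there, and their part in the remainder was not tested.

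A total of 16 of the 221 were at least as high in the members as in the rest, and they are named here after their values were seen. They include the small GTPase-like gene Arl10 at 143 CPM (127 to 161) against 59.7 CPM (55.1 to 64.5), the lysosomal hyaluronidase gene Hyal1 at 63.5 CPM (52.6 to 75.9) against 15.1 CPM (12.9 to 17.7), the acid sphingomyelinase gene Smpd1 at 73.0 CPM (61.3 to 86.2) against 33.7 CPM (30.3 to 37.4), the immune GTPase gene Gimap1 at 53.4 CPM (43.5 to 64.9) against 26.4 CPM (23.4 to 29.7), and Hbb-bt, which rests on the 2 haemoglobin-rich cells. Hyal1 had 29.3 CPM in the rest and Gimap1 2.31 CPM. The others were unnamed transcripts and low genes such as Dcakd, Tmem60 and Zfp646, with at most 100.5 CPM.

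**Figure D4:**
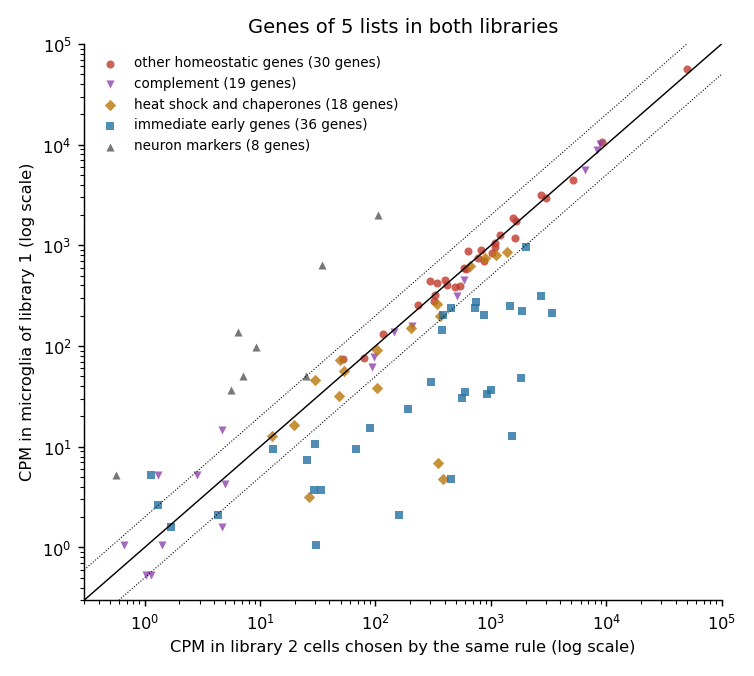
Level of each gene of 5 lists in the microglia of library 1 (y axis) and in the library 2 cells chosen by the same rule (x axis), in UMIs per 1000000 UMIs on log axes. Each symbol is a gene detected in both, the solid line marks equal levels and the dotted lines a 2 times difference. Resting genes follow the solid line over most of the range, neuron markers lie above it and most immediate early genes below it. The 9 complement genes measured had a median log2 ratio of -0.33, toward library 2.

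Genes lower in the members were led by immediate early and stress genes. Of the 37 immediate early genes, 23 were measured and 21 of them were at least 2 times lower, where 3.72% of all tested genes were. The group summed to 3621 against 22928 CPM (22837 to 23019). Zfp36, which shortens the life of cytokine mRNAs (ENSMUSG00000044786, chromosome 7, 28376784 to 28380253), stood at 48.1 CPM (38.7 to 59.1) against 1815 CPM (1789.8 to 1841), so that library 2 had 37.7 times (30.7 to 46.9) the level of the members. Socs3, a feedback inhibitor of cytokine receptors, had 33.3 against 932 CPM. Dusp1, a phosphatase that ends MAP kinase signals, had 9 UMIs or 4.76 CPM (2.18 to 9.03) against 452 CPM (439 to 464). Rhob differed least of the 21, with 964 against 2005 CPM. The 2 measured genes not past the threshold were Mcl1 (238 against 453 CPM) and Dusp6 (204 against 387 CPM). Of the heat shock list, the inducible Hspa1a and Hspa1b, near-identical neighbours that can share reads, had 6.87 and 4.76 CPM against 346 and 386 CPM, and Dnajb1 38.1 against 103 CPM. Hspa5 had 631 against 662 CPM, a ratio whose interval includes 1. The whole heat shock list was lower in the members, at 4029 CPM (3939 to 4120) against 6129 CPM (6082 to 6176). Of its 13 measured genes, 3 were at least 2 times lower, and the median log2 ratio of the 13 was -0.44. Hspa1a, Hspa1b and Dnajb1 were under 50 CPM in the members, so they too could only come out lower.

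Cell by cell, the members occupied the low end of the library 2 distribution. Thinned to 1000 UMIs, a member held a median of 3 immediate early UMIs (quartiles 2 and 5, 95th percentile 7, highest 91) and a library 2 cell a median of 8 (quartiles 4 and 31, 95th percentile 73). Of the library 2 cells, 752 or 48.1% held no more than the 95th percentile of the members, and 31 members (3.92%) reached the library 2 median. The 2 populations therefore overlap at low counts and differ at high counts. For resting genes the order was the other way, with medians of 95 and 87 of 1000 UMIs, and for complement genes 26 and 25.

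**Figure D5:**
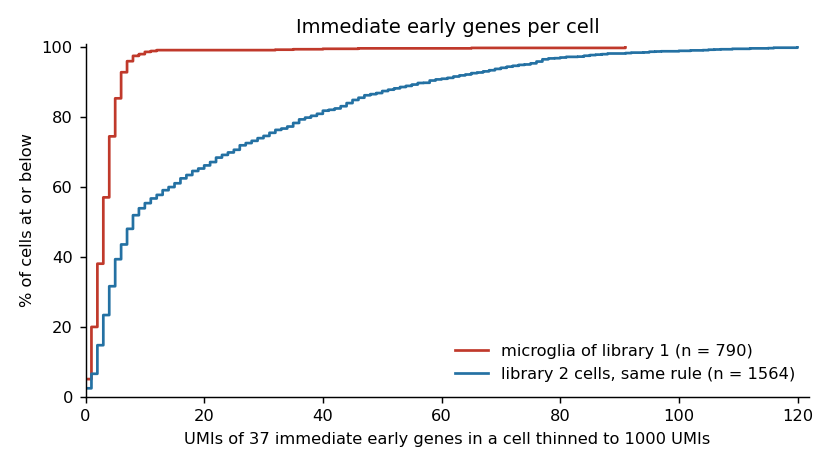
Cumulative share of cells, in percent, by the number of UMIs of 37 immediate early genes after each cell was thinned to 1000 UMIs, for the 790 microglia of library 1 (red) and the 1564 library 2 cells chosen by the same rule (blue). The red curve is nearly complete at 7 UMIs apart from a few cells that reach 91, while the blue curve passes 48.1% there and extends to 120.

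Of the 145 lower genes, 41 were at least 4 times higher in the members than in the rest, where 941 of all 3902 tested genes were, so the share is near that of all genes. Besides immediate early and cytokine genes they included Hk2, the inducible hexokinase gene, with 113 CPM (98.0 to 129) against 468 CPM (455 to 481), the receptor genes Gpr84 (89.4 against 189.7 CPM) and Gpr183 (164 against 342 CPM), Sat1, which acetylates polyamines (494 against 1068 CPM), and Kctd12 (715 against 1544 CPM). The paralogs Rnaset2a and Rnaset2b, which can share reads, had 65.0 and 60.8 against 279 and 251 CPM. A further 16 of the 41 encode ribosomal proteins, and this family was looked at after that had been seen. Its 83 genes summed to 56484 CPM (56146 to 56824) in the members and 85972 CPM (85796 to 86148) in library 2. Of 81 measured, 76 were lower in the members. By 2 times, 19 of the 81 were lower, where 3.72% of all tested genes were, among them Rps28 (208 against 1262 CPM) and Rps29 (1149 against 4746 CPM). Many have processed pseudogenes that can share their reads.

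RNA of other compartments also differed. The 13 mitochondrially encoded genes summed to 23489.9 CPM (23272 to 23709) against 42392 CPM (42268 to 42516), under a shared limit of 10% of UMIs. At least 2 times lower in the members were 6 of the 13, where 3.72% of all tested genes were, among them mt-Co1 (2832 against 5884 CPM) and mt-Nd3 (298 against 1146 CPM). Of the 6, mt-Atp8 (13.2 CPM) and mt-Nd6 (8.99 CPM) were measured through library 2 and could only come out lower. Malat1, which stays in the nucleus, was higher in the members at 48210.2 CPM (47898 to 48524) against 34118 CPM (34007 to 34229), and Neat1 lower at 112 against 228 CPM. Gm42418, a locus that overlaps ribosomal RNA sequence, had 822 CPM (782 to 864) in the members and 10941 CPM (10878 to 11004) in library 2. In the rest of library 1 it had 936 CPM. Lars2, a mitochondrial tRNA synthetase gene, had 25.9 against 400.5 CPM.

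Levels of resting, complement and immediate early genes within the members differed little by depth below 4000 UMIs. The 262 members with under 2000 UMIs and the 490 with 2000 to under 4000 had 95649.6 and 98509 CPM of resting genes, 27234 and 26631 CPM of complement genes and 3667 and 3835 CPM of immediate early genes. The 38 deeper members had 68948, 18142 and 2007 CPM, and 5422 CPM of neuron markers against 3036 and 2691 CPM. Other lists did differ between the 262 and the 490 members. Nuclear RNAs stood at 53839 and 47592 CPM and the rule markers at 17413 and 16478 CPM. Outside the limits, 179 barcodes of library 1 met the marker and neuronal rule with fewer UMIs or genes and had 109409 CPM of resting and 2128 CPM (1876 to 2406) of immediate early genes. A further 11 exceeded the mitochondrial limit, with 91062 and 2029 CPM. In library 2, 479 barcodes exceeded that limit and had 17666 CPM of immediate early genes, and 60 barcodes under the UMI or gene minimum had 6607 CPM (5904 to 7371).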

How the data were processed

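The deposited files hold a raw UMI count per gene and barcode without normalization, which the authors made with Cell Ranger (3.0.1) against GRCm38.p5, per the submitters' processing notes. Each has 41605 feature rows. Rows that share a symbol were summed, which left 41509 symbols. Gene positions are those of GENCODE release M21 on GRCm38, matched by gene ID for 41435 rows. Both libraries are unassigned, because no label names their dissociation, and the replicates needed for a test do not exist.

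The members follow the stated limits. Neuron-like, astrocyte-like and oligodendrocyte-like barcodes of library 1 were those with under 0.5% of the 6 marker genes and, for the first, at least 1.5% of Meg3 and Snhg11 and under 1% of UMIs from 8 astrocyte and 8 oligodendrocyte markers. The other classes had under 1.5% of the neuronal RNAs, at least 1% from their own list and less from the other. These thresholds were set after the data had been seen. UMI counts were summed over cells. CPM intervals are exact Poisson, shares Clopper-Pearson and ratios conditional binomial, at the 95% level (scipy 1.17.1), and cover counting error only. By this interval, a count of 0 in the members has an upper bound of 1.95 CPM. A gene was measured against the rest or library 2 with at least 50 CPM on either side and 20 UMIs in all. A gene under 50 CPM on a given side was measured through the other, and could only come out lower on the given side. Members were clustered with scanpy 1.11.5 (1500 variable genes, 20 components, 15 neighbours, Leiden resolution 0.3) and doublets scored with Scrublet. Its own threshold was used for library 1 (1.79% marked). In library 2 this gave 0.139%, too few to accept. Barcodes at or above the score quantile set by the expected share of 5.16% were marked instead, which took in 165 of 2164. Doublets were kept in the main values. The scripts were tested on simulated data.

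Named genes are up to 8 of the highest CPM per gene group and those with 0 UMIs, the 20 highest over the rest, and the 15 highest and 15 lowest against library 2 by the bound nearest 1, with at least 100 UMIs. Others are named where a sentence turns on them, and some genes that the rule would name are not reported here. The members and the 23 gene groups and 16 marker lists were chosen with earlier results of these data known. The promoter motifs were also chosen then. Alternatives to each limit were run, and the closing section gives their effect.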

Additional observations from a re-analysis of the deposited data

How the results depend on the processing

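The number of members ran from 528 to 969 around 790 across the alternatives. Many summed levels left their counting interval, among them complement genes (25949 CPM), which ran from 24765 to 27672. The main groups are given in full. Other homeostatic genes (95009) stood at 90482 with no such limit, 93468 at 0.25%, 95869.7 with 500 UMIs and 250 genes, 96245 without marked doublets, 96528 with equal weight per cell, 98181 with Meg3 and Snhg11 under 0.5%, 98734 at a marker share of 1%, 101024 without the small sub-clusters. Immediate early genes (3621) stood at 3209 without the 6 cells, 3494 with no such limit, 3531 with 500 UMIs and 250 genes, 3747 with Meg3 and Snhg11 under 0.5%, 3859 without the small sub-clusters. NF-kB and cytokine genes (1536) stood at 1421 without the 6 cells, 1426 at a marker share of 1%, 1465 with no such limit, 1661 without the small sub-clusters, and heat shock genes (4029) at 3909.5 with no such limit, 4192 without the small sub-clusters. Neuron markers (3033) moved most, with 2367 with Meg3 and Snhg11 under 0.5%, 2487 without the small sub-clusters, 2715 at a marker share of 1%, 2777 without marked doublets, 2904 with equal weight per cell, 3117 at 0.25%, 3135 with 500 UMIs and 250 genes, 7308 with no such limit. The settings without sub-clusters or chosen cells were added after seeing the data, as was division by the median ratio.

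The 221 genes higher than in library 2 were 142 with Meg3 and Snhg11 under 0.5% in both libraries, 97 without the small sub-clusters, 128 at 4 times and 1473 with a minimum of 10 CPM, where 10043 genes were tested. The 145 lower genes were 60 at 4 times and 329 with 10 CPM. With both libraries thinned to 1000 UMIs a cell, 224 were higher and 137 lower, of which 161 and 128 were among the main ones. At 1000 UMIs a cell, genes under 50 CPM are seen in few cells, and their differences were not detectable there. No paired analysis was possible because no replicates exist.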
